A study of Mus musculus with 31 samples.

Results

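The DNA damage checkpoint, which halts the cell cycle when DNA is broken, was followed in mouse tumors before and after radiation therapy (RT). Its kinases and adaptor proteins, and phosphatases that it acts on, were measured at the level of mRNA. The 10 genes were Atm, Atr, Chek1, Chek2, Wee1, Cdc25a, Cdc25b, Trp53, Trp53bp1 and Mdc1, taken by name from the 46072 genes of each expression table. All 10 were found under their own symbol, and all 10 passed the filter on low values in both tumor models. The tumors came from RM-9, a mouse prostate cancer cell line, and MC-38, a mouse colon cancer cell line, each injected under the skin of the right hind leg of young adult male C57BL/6J mice with a wild-type genotype. Each library was made from the tumor of 1 mouse, which gave 15 RM-9 and 16 MC-38 libraries. In the RM-9 model there were 4 control mice at 0 Gy, 4 mice at 3 h and 4 at 12 h after a single dose of 15 Gy, and 3 mice at 24 h. In the MC-38 model each of the same 4 groups held 4 mice. Labels place the control mice at the 3 h time point. The same 4 control mice of a model therefore stood against all 3 of its RT groups, and the effect of RT at 12 h and 24 h cannot be told apart from that of time. A piece of each tumor holds cancer cells together with the host's own cells, so in these bulk samples fewer cells of a type and less RNA per cell cannot be told apart.

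Double-strand breaks recruit the kinase ATM, and stretches of single-stranded DNA at stalled replication forks recruit the related kinase ATR. ATM acts largely through the kinase CHK2 (Chek2) and ATR through CHK1 (Chek1), and the adaptors 53BP1 (Trp53bp1) and MDC1 gather on the chromatin beside a break. Entry into S phase and mitosis depends on the phosphatases CDC25A and CDC25B, which remove the inhibitory phosphate that WEE1 puts on cyclin-dependent kinases. The transcription factor p53 (Trp53) is stabilised downstream of ATM and ATR and switches on arrest genes. Most of this signalling runs through phosphorylation and protein turnover, which mRNA levels do not show.

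The values were TPM, transcript abundances scaled to gene length and to the same total in each library, so levels can be set side by side between genes. The libraries held 21.4 to 29.4 M reads. The mitochondrial gene mt-Nd4l alone took 35.6 to 43.5% of all TPM in the RM-9 model and from 12.9 to 29.6% in the MC-38 model, which left less of the fixed total for the other genes where that share was high. Over all genes tested, the median log2 change against control in RM-9 tumors was 0.06 after 3 h, -0.19 after 12 h and -0.04 after 24 h. The same medians for MC-38 tumors were 0.19, 0.33 and 0.22. The main changes below are therefore given for TPM as deposited and again after median-ratio scaling, which sets the typical gene of every library to the same level. The library of MC-38 control mouse 1 stood apart, with the highest mt-Nd4l share of its model and a summed level of 11371 TPM over the 6 skeletal muscle markers, against 19.2 to 1830 TPM in the other control mice of the model. Of the markers that define the labelled tissues, Pbsn and Tmprss2 of the prostate markers were at 0 TPM in all 15 RM-9 libraries, and Cdx1 and Cdx2 of the 5 colon markers were at 0 TPM in all 16 MC-38 libraries. Cdx2 was at 3.74 to 7.68 TPM in every RM-9 library, and the prostate marker Hoxb13 was at 0 TPM in 8 of 15 RM-9 libraries and at 0.45 to 3.03 TPM in the MC-38 libraries. The epithelial keratin Krt8 ranged from 463 to 1069 TPM across the RM-9 libraries, while its highest MC-38 value was 0.20 TPM. Villin (Vil1), a further colon marker, was at 0.23 to 1.54 TPM in the MC-38 libraries and at 0 TPM in 14 of 15 RM-9 libraries. Pbsn, Tmprss2 and Cdx1 were at 0 TPM in every library of both models, so they do not tell the models apart. The colon markers Cdh17 and Lgals4 were above 0 TPM in every library of both models. In MC-38 tumors they were at 0.39 to 1.72 and 0.15 to 1.38 TPM. Vil1 thus went with the labelled tissues of origin and Cdx2 against them. Hoxb13 did not go with the prostate label of RM-9, and its values in MC-38 tumors do not bear on the colon label. Krt8 marks epithelium and neither tissue in particular. The models are called by their labels.

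In untreated tumors, Trp53 had the highest level of the 10 genes in both models. It stood at 92.5 ± 6.32 TPM (SD, n = 4) in RM-9 and 118 ± 25.7 TPM (SD, n = 4) in MC-38 control mice. Cdc25b, the phosphatase that acts at the start of mitosis, followed at 24.8 ± 2.13 TPM in RM-9 and 40.9 ± 11.4 TPM in MC-38 tumors (SD, n = 4 each). In RM-9 tumors Cdc25a came next at 10.3 ± 1.22 TPM, and Trp53bp1, Wee1, Chek2, Mdc1, Chek1 and Atr lay between 7.36 and 3.60 TPM. Each of these 6 overlapped with the gene next to it in the order. Atm had the lowest level at 1.40 ± 0.43 TPM, and its 4 control mice, at 0.88 to 1.80 TPM, were all below the lowest value of Atr, 3.33 TPM. In MC-38 tumors the 8 genes below Cdc25b lay between 19.9 TPM for Chek2 and 7.72 TPM for Atr, and each overlapped with its neighbour in the order. Atm, the break-responsive kinase, was thus the weakest of the 10 mRNAs in RM-9 tumors, while in MC-38 tumors it overlapped with Atr at the bottom of the order.

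**Figure D1:**
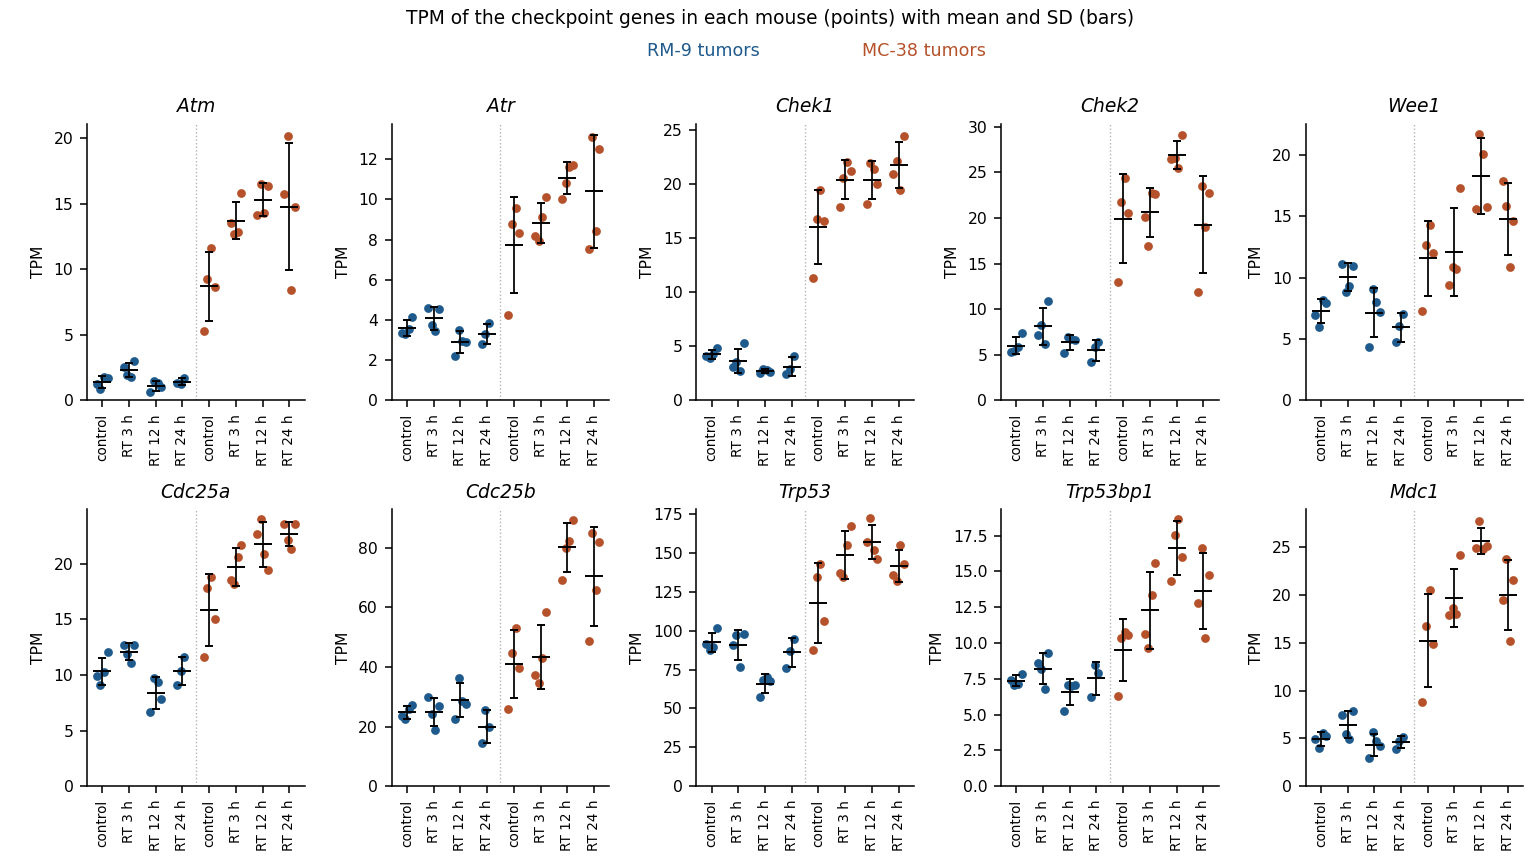
TPM of the 10 checkpoint genes (linear axis from 0, 1 panel per gene) in each mouse of the 8 groups, RM-9 in blue and MC-38 in brown, with the mean and SD of each group as bars. Cdc25b in MC-38 tumors lies at 25.9 to 53.2 TPM in control mice and at 69.1 to 89.2 TPM at 12 h after RT, while Trp53 in RM-9 tumors lies at 87.3 to 102 TPM in control mice and at 57.2 to 70.3 TPM at 12 h.

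In the RM-9 tumor model, Atm and Wee1 lay above every control mouse in all 4 mice at 3 h after RT, but no checkpoint gene passed the test. The limma test with Benjamini-Hochberg adjustment called 0 of 10 genes, against 0.228% of all 14013 genes tested, while 3 of the 10 had an unadjusted p under 0.05. Atm was 1.23, 0.88, 1.80 and 1.69 TPM in the control mice and 2.54, 1.95, 1.82 and 3.01 TPM at 3 h, a log2 change of 0.58 ± 0.21 (SE) with a limma adjusted p of 0.15. The lowest RT mouse exceeded the highest control mouse by a narrow margin. Wee1, the kinase that holds CDK1 inactive, was 6.93, 6.01, 8.17 and 7.96 TPM in the control mice and 11.1, 8.81, 9.34 and 10.9 TPM at 3 h. Its log2 change was 0.44 ± 0.18 (SE), with a limma adjusted p of 0.18, and the groups did not overlap. Over all genes tested, 9.88% had every RT mouse above every control mouse at this time, against 2 of the 10 here. Both genes had an exact two-sided permutation p of 0.0286, which is the smallest that 4 mice against 4 allow. In a Dunnett comparison on TPM, which is not adjusted over genes, Atm and Wee1 passed 0.05 as well, in contrast to the limma test across all genes. Chek2 had a log2 change of 0.39 (95% interval 0.03 to 0.75) and Mdc1 of 0.33 (-0.05 to 0.72). For Chek1, the interval ran from -0.60 to 0.12 around -0.24. After median-ratio scaling 0 of the 10 were called, against 2.73% of all genes (1.61% higher and 1.13% lower), and 4 had an unadjusted p under 0.05.

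At 12 h after RT, Trp53 and Chek1 were lower than in the control mice of the RM-9 model, the sole calls among the 10 genes in this model. Trp53 was 91.7, 87.3, 89.4 and 102 TPM in the control mice and 57.2, 68.6, 70.3 and 67.7 TPM at 12 h. All 4 RT mice lay below all 4 control mice, and the log2 change was -0.49 ± 0.10 (SE) with a limma adjusted p of 0.025. Chek1, the effector kinase of ATR, was 4.06, 3.96, 4.24 and 4.88 TPM in the control mice and 2.55, 2.93, 2.78 and 2.60 TPM at 12 h. The groups did not overlap either, with a log2 change of -0.57 ± 0.17 (SE) and a limma adjusted p of 0.0498. The background at this time was 8.37% of 14013 genes called, with 0.0714% higher and 8.3% lower, and 19.4% of genes had every RT mouse below every control mouse. After median-ratio scaling 0 of the 10 genes were called, against 0.136% of all genes, with 0.0928% higher and 0.0428% lower. Trp53 then had a log2 change of -0.27 with an adjusted p of 0.062, and Chek1 of -0.38 with an adjusted p of 0.21. Neither call was stable when 1 of the 8 mice was left out: Chek1 passed in 0 of 8 such fits and Trp53 in 3 of 8, those without control mouse 3 or RT 12 h mouse 2 or 3. Without RT 12 h mouse 1, the library with the highest mt-Nd4l share of the model, the log2 change was -0.42 for Trp53 (limma adjusted p = 0.059) and -0.55 for Chek1 (0.12), and 0 of 14046 genes were called. The other 8 genes did not pass the test, with log2 changes from -0.29 for Cdc25a to 0.20 for Cdc25b. The summed level of the 6 macrophage markers was 300.0 to 468 TPM in the RM-9 control mice and 152 to 289 TPM at 12 h. The 5 epithelial markers summed to 1155 to 1395 TPM in control mice and 669 to 1137 TPM at 12 h, and the 6 T cell markers to 5.03 to 9.45 TPM and 1.56 to 4.81 TPM. None of these 3 sums overlapped between the groups, and their part in these results was not tested.

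At 24 h after RT, no checkpoint gene was called in RM-9 tumors, and neither was any of the 14013 genes, a background of 0% by limma in both scalings, with 681 genes at an unadjusted p under 0.05. Chek1 had the largest difference, at 2.45, 2.88 and 4.07 TPM in the 3 RT mice, a log2 change of -0.42 with a 95% interval of -0.81 to -0.03. It was the 1 gene of the 10 with an unadjusted p under 0.05, and the Dunnett comparison called 0. Cdc25a, at 10.4 ± 1.26 TPM (SD, n = 3), and Trp53bp1, at 7.52 ± 1.18 TPM (SD, n = 3), stood within 0.02 log2 units of control. Their 95% intervals were -0.28 to 0.29 and -0.27 to 0.30.

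In the MC-38 tumor model, all 10 genes had a higher mean at 3 h after RT than in control mice, and none passed the test. The limma test called 0 of 10, against 0.0637% of all 15698 genes tested, and 4 of the 10 had an unadjusted p under 0.05. The Dunnett comparison called 0, and so did median-ratio scaling, against 0.65% of all genes. Atm was 5.26, 9.24, 11.6 and 8.68 TPM in the control mice and 13.5, 12.7, 12.8 and 15.8 TPM at 3 h, so that every RT mouse lay above every control mouse, as it did for 7.2% of all genes. Its log2 change was 0.67 ± 0.23 (SE), with a limma adjusted p of 0.17, and 0.47 after median-ratio scaling. The other 9 genes ranged from a log2 change of 0.06 for Wee1 to 0.41 for Mdc1. After median-ratio scaling the changes of Chek2, Wee1 and Cdc25b turned to -0.14, -0.14 and -0.12, so at 3 h the direction of these genes depended on the scaling.

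At 12 h after RT, 7 of the 10 checkpoint genes were called higher in MC-38 tumors than in control mice, and Cdc25b, Trp53bp1 and Mdc1 were called after median-ratio scaling as well. Cdc25b was 25.9, 44.8, 53.2 and 39.8 TPM in the control mice and 69.1, 79.9, 82.2 and 89.2 TPM at 12 h. The groups did not overlap, and the log2 change was 1.00 ± 0.22 (SE) with a limma adjusted p of 0.011. Trp53bp1, which steers break repair toward end joining, was 6.30, 10.4, 10.8 and 10.6 TPM in the control mice and 14.3, 17.6, 18.7 and 16.04 TPM at 12 h. Its log2 change was 0.80 ± 0.19 (SE), with a limma adjusted p of 0.014. Mdc1, the adaptor that binds phosphorylated histone H2AX, was 8.79, 16.7, 20.5 and 14.9 TPM in the control mice and 25.0, 27.7, 24.8 and 25.1 TPM at 12 h. Its log2 change was 0.79 ± 0.20 (SE), with a limma adjusted p of 0.016. In all 3 genes, each RT mouse was above each control mouse.

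The limma test called 7 of the 10 genes higher and 0 lower at 12 h in MC-38 tumors, against 31.1% of all 15698 genes called, with 28.5% higher and 2.59% lower. Besides Cdc25b, Trp53bp1 and Mdc1, these were Atm, Wee1, Cdc25a and Trp53. Atm reached 14.2, 16.5, 14.3 and 16.3 TPM, a log2 change of 0.83 ± 0.23 (SE; limma adjusted p = 0.021). Wee1 was 7.25, 12.7, 14.3 and 12.0 TPM in control mice and 15.6, 21.7, 20.1 and 15.7 TPM at 12 h, a log2 change of 0.66 (limma adjusted p = 0.036). Cdc25a, the phosphatase that is degraded when CHK1 is active, was 11.7, 17.8, 18.8 and 15.0 TPM in control mice and 22.7, 24.0, 20.9 and 19.4 TPM at 12 h, a log2 change of 0.46 (limma adjusted p = 0.023). Trp53 was 87.5, 135, 143 and 106 TPM in control mice and 157, 172, 152 and 146 TPM at 12 h, a log2 change of 0.44 (limma adjusted p = 0.027). Atr, Chek1 and Chek2 had log2 changes of 0.54, 0.36 and 0.46 and did not pass, with limma adjusted p of 0.065, 0.065 and 0.089. In 9 of the 10 genes, all but Chek1, every RT mouse was above every control mouse, as for 34.5% of all genes.

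The median log2 change of the 10 genes was 0.60 in TPM as deposited, against 0.33 over all genes, and all 10 were above that median. After median-ratio scaling the median was 0.27 against 0.01 over all genes, and 3 of the 10 were called higher, against 16.2% of all genes called, with 6.34% higher and 9.84% lower. The 3 were Cdc25b, with a log2 change of 0.66 and an adjusted p of 0.007, Trp53bp1, with 0.47 and 0.025, and Mdc1, with 0.45 and 0.029. Without MC-38 control mouse 1, which had the lowest level of all 10 genes among the control mice, 3 genes were called in TPM as deposited, and all 3 were among those called after median-ratio scaling. Their log2 changes were then 0.80 for Cdc25b, 0.62 for Trp53bp1 and 0.56 for Mdc1, with limma adjusted p of 0.025, 0.034 and 0.032. The same 3 alone were called without RT 12 h mouse 2. In fits without control mouse 4 or without RT 12 h mouse 4 there were 4 calls, and without control mouse 3 there were 10. The share of all genes called in each fit that left out 1 mouse is not given here, so these counts have no background beside them. Cdc25b, Trp53bp1 and Mdc1 were called in all 8 fits that left out 1 mouse. Wee1 overlaps 1600010M07Rik on the opposite strand over 19763 bases, and that gene was at 0 to 1.75 TPM. Its log2 change at 12 h was -1.30 (limma adjusted p = 0.017), opposite in sign to that of Wee1. Cdc25b overlaps Spef1 on the opposite strand over 334 bases. Spef1 was at 1.07 to 9.04 TPM, with a log2 change of 0.25 at 12 h (limma adjusted p = 0.52). Trp53bp1 overlaps Tubgcp4 on the opposite strand over 5490 bases, and the strand setting of the counting is not stated. Tubgcp4 itself had a log2 change of 0.46 at 12 h, with a limma adjusted p of 0.055. Markers of other cell types also moved at this time: the summed level of the 6 macrophage markers was 625.3 to 999.6 TPM in control mice and 230 to 542 TPM at 12 h, with none of the 6 at 0 TPM, and its part in these results was not tested. The 6 skeletal muscle markers summed to 19.2 to 11371 TPM in control mice and 6.35 to 472 TPM at 12 h.

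At 24 h after RT, Cdc25a and Cdc25b were higher than in control mice of the MC-38 model in both scalings. Cdc25a was 23.6, 22.2, 21.4 and 23.6 TPM, above all 4 control mice, with a log2 change of 0.53 ± 0.13 (SE) and a limma adjusted p of 0.018. Cdc25b was 48.8, 85.1, 65.7 and 82.0 TPM, above all control mice in 3 of 4 mice, with a log2 change of 0.79 ± 0.22 (SE) and a limma adjusted p of 0.026. After median-ratio scaling the changes were 0.27 (adjusted p = 0.035) and 0.53 (adjusted p = 0.013). In TPM as deposited, 4 of the 10 genes were called, all higher, against 13.8% of all genes, with 13.2% higher and 0.548% lower. The other pair was Atm, at 15.7, 20.1, 8.43 and 14.8 TPM (log2 change 0.72, limma adjusted p = 0.0496), and Chek1, at 20.9, 22.1, 19.4 and 24.5 TPM (0.45, adjusted p = 0.048). In mouse 3, Atm fell within the range of the control mice. After median-ratio scaling 2 of the 10 were called, against 16% of all genes (7.85% higher and 8.15% lower), and without control mouse 1 Cdc25a alone remained, with a log2 change of 0.39 (limma adjusted p = 0.031). Without control mouse 2 or RT 24 h mouse 1, Cdc25a and Cdc25b were called, and 6 genes were without control mouse 3. The share of all genes called in these fits is not given here. Without RT 24 h mouse 4, 0 of the 10 genes were called, against 6.82% of all genes, without control mouse 4 or RT 24 h mouse 2 Cdc25a alone was, and with only the control and 24 h groups in the fit 0 were. Chek2, the effector kinase of ATM, was at 11.9 to 23.5 TPM, a log2 change of -0.06 with a 95% interval of -0.49 to 0.38. The 4 endothelial markers summed to 32.9 to 46.7 TPM in the MC-38 control mice and 48.4 to 59.6 TPM at 24 h, and the 6 T cell markers to 16.3 to 24.9 TPM and 8.02 to 15.2 TPM. Neither sum overlapped between the groups, and their part in these results was not tested.

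**Figure D2:**
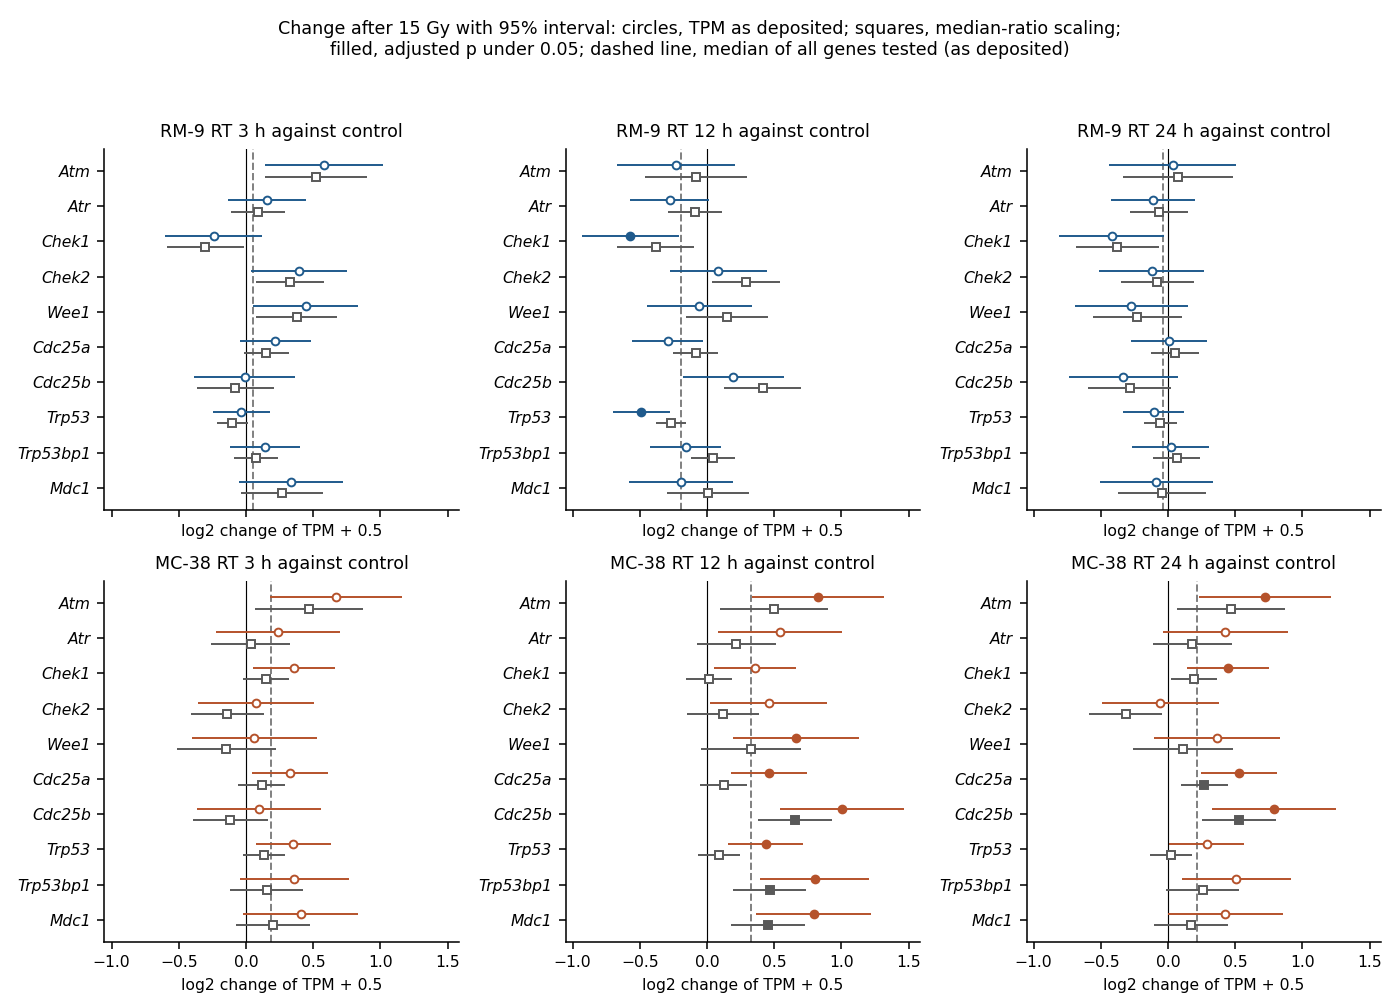
Log2 change of TPM + 0.5 against control (x axis) with its 95% interval for each checkpoint gene, in the 6 comparisons of an RT group with control. Circles show TPM as deposited, squares median-ratio scaling, filled symbols an adjusted p under 0.05 and the dashed line the median of all genes tested. At 12 h in MC-38 tumors all 10 circles lie right of the dashed line at 0.33, and 3 of the squares are filled.

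The stretches of genome before Cdc25b, Cdc25a, Trp53bp1 and Mdc1 are shown because these 4 genes were called higher in MC-38 tumors at 12 h or 24 h under both scalings. Of the 10 genes, 9 had an entry in the RefSeq promoter table for build GRCm38.p6, and Wee1 did not. The 250 bases before the annotated start were taken, 5′ to 3′ on the strand of the gene, and none of these bases lies in an exon of GENCODE M21 in the 4 genes shown. They lie at chr2:131186698-131186947 on the plus strand for Cdc25b, at chr9:109875329-109875578 on the plus strand for Cdc25a, at chr2:121271408-121271657 on the minus strand for Trp53bp1 and at chr17:35841248-35841497 on the plus strand for Mdc1. Capitals mark the CCAAT box (CCAAT), the GC box (GGGCGG) and an E2F-like element (TTTCGCGC, TTTGGCGC, TTTCCCGC or TTTGCCGC), each searched on both strands.
Cdc25b: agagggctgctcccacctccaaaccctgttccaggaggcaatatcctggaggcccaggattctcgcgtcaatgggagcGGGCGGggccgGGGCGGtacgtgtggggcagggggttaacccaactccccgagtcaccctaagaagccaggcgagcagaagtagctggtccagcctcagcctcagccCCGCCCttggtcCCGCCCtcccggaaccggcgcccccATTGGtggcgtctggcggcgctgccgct
Cdc25a: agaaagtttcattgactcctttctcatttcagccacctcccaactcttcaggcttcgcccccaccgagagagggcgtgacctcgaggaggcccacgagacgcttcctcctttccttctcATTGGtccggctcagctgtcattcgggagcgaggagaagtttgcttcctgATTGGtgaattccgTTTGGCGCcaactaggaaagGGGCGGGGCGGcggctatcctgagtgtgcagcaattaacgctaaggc
Trp53bp1: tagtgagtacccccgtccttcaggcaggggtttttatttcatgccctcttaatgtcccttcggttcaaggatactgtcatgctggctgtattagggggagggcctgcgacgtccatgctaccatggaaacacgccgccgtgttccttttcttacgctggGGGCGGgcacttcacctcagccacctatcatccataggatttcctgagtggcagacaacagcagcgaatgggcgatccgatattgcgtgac
Mdc1: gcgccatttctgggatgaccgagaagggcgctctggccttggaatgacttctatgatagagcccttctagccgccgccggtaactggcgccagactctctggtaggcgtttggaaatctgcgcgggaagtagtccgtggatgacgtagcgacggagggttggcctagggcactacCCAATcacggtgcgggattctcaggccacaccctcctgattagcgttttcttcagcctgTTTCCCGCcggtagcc

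The windows of the other 5 genes hold annotated exons. All 250 bases lie in exons of Chek1 itself for Chek1 and of 1700065D16Rik for Atr, and 69 bases lie in Atm for Atm, 49 in Chek2 and Hscb for Chek2 and 147 in Wrap53 for Trp53, so the counts over 9 windows include annotated exon sequence. The CCAAT box was present in the windows of 6 of the 9 genes and of 33.8% of all 32851 entries of the table. In Cdc25b it starts 28 bases before the gene and in Mdc1 75 bases before it, and Trp53bp1 has none in this window. The GC box was present for 5 of the 9 genes and 32.7% of all entries, 4 times in Cdc25b, in 2 overlapping copies in Cdc25a and in 1 copy in Trp53bp1. An E2F-like element was present for Chek2, Cdc25a and Mdc1, 3 of the 9, and for 1.86% of all entries. The cell cycle homology region of late cell cycle genes (TTTGAA or TTTAAA) matched in none of the 9 windows and in 25.2% of all entries. A match describes these letters in this window and says nothing of binding.

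The response at 12 h differed between the tumor models for most of the checkpoint genes, and the typical gene differed in the same direction. In a limma fit of all 31 libraries, the change in MC-38 tumors exceeded that in RM-9 tumors for 9 of the 10 genes, all but Chek2, against 45.4% of all 15358 genes called, with 44.9% higher and 0.469% lower. The differences of the 9 ran from 0.72 log2 units for Wee1 (limma adjusted p = 0.0497) to 1.06 for Atm (0.012), while the median over all genes was 0.50. After median-ratio scaling 1 of the 10 was called, against 2.84% of all genes. This was Trp53, whose change in MC-38 tumors exceeded that in RM-9 tumors by 0.39 log2 units (adjusted p = 0.017), and by 0.92 in TPM as deposited (limma adjusted p = 0.0016). Its TPM fell from 92.5 to 65.9 in RM-9 tumors and was 118 in control and 157 at 12 h in MC-38 tumors. The RM-9 libraries alone carried a tag in their names, and the labels do not give the sequencing run. Tumor model and sequencing run may therefore not be separable.

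At 24 h, Chek1 was the 1 gene of the 10 called for a difference in response between the models in TPM as deposited. Its change in MC-38 tumors exceeded that in RM-9 tumors by 0.87 log2 units as deposited (95% interval 0.39 to 1.34, limma adjusted p = 0.049) and by 0.63 after median-ratio scaling (adjusted p = 0.045). Cdc25b had the larger difference, 1.12 log2 units (95% interval 0.50 to 1.75), which missed the threshold as deposited (limma adjusted p = 0.051) and passed after median-ratio scaling at 0.87 (adjusted p = 0.028). The background was 1.81% of genes called as deposited and 1.72% after scaling. The call of Chek1 held in 4 of the 15 fits that left out 1 mouse, those without RM-9 RT 24 h mouse 3, MC-38 control mouse 2 or 3, or MC-38 RT 24 h mouse 1. At 3 h, limma called 0 of the 10 genes in either scaling, against 0% of all genes in TPM as deposited and 0.0391% after median-ratio scaling, and 2 of the 10 had an unadjusted p under 0.05. Chek1 was the larger of these, at 0.60 (95% interval 0.14 to 1.06, limma adjusted p = 0.41).

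**Figure D3:**
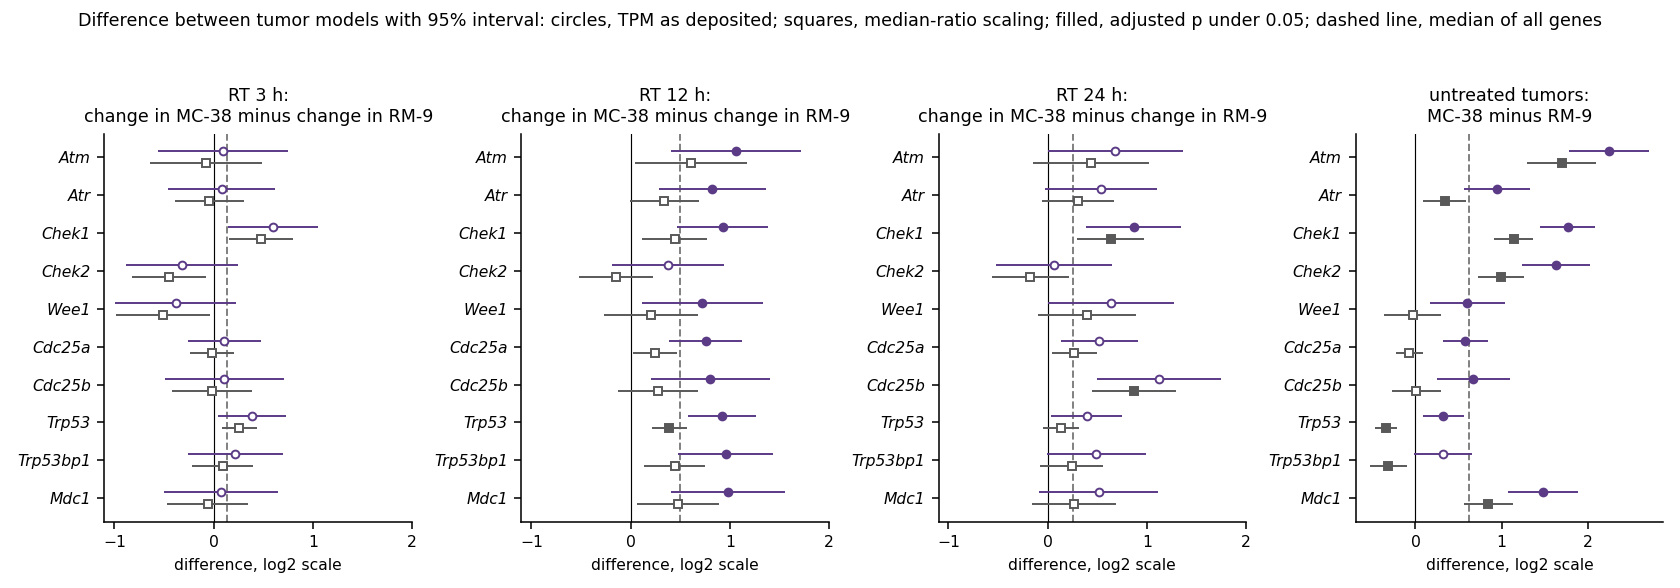
Difference between the tumor models on the log2 scale (x axis) with its 95% interval for each checkpoint gene. The first 3 panels show the change in MC-38 minus the change in RM-9 at each time after RT, and the last shows untreated MC-38 minus untreated RM-9; symbols are as in the plot of log2 changes, and at 12 h 9 circles but 1 square are filled.

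Before RT, the break-sensing and effector kinases were higher in MC-38 than in RM-9 tumors. Tumor model and sequencing run may not be separable in this comparison either. Atm was 5.26 to 11.6 TPM in MC-38 and 0.88 to 1.80 TPM in RM-9 control mice, a difference of 2.25 ± 0.23 log2 units (SE). Chek1 was 11.3 to 19.5 TPM against 3.96 to 4.88 TPM, Chek2 13.03 to 24.4 TPM against 5.35 to 7.36 TPM and Mdc1 8.79 to 20.5 TPM against 3.98 to 5.60 TPM. None of these ranges overlapped, and the share of all genes without overlap between the untreated models was not counted. In all, 9 of the 10 genes were called higher in MC-38, against 64.7% of all genes called higher and 10.7% called lower, and the median gene stood 0.63 log2 units higher. After median-ratio scaling 5 were higher and 2 lower, against 34.1% and 31.5% of all genes. Atm (1.70), Chek1 (1.14), Chek2 (0.99), Mdc1 (0.85) and Atr (0.34) were higher on that scale, with adjusted p from 1.2e-09 for Chek1 to 0.016 for Atr. Trp53 and Trp53bp1 were lower, at -0.34 (adjusted p = 1.7e-05) and -0.32 (adjusted p = 0.011), while in TPM as deposited both stood at 0.32, where Trp53 was called higher and Trp53bp1 was not (limma adjusted p = 0.081). Wee1, Cdc25a and Cdc25b stood within 0.07 log2 units between the models after median-ratio scaling.

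The ratio of a pair of checkpoint genes within a library does not depend on how the library was scaled, and 7 such ratios were computed. The pairs were chosen with earlier results of these data known, and their values are given with no test. How often other pairs of genes separate in this way was not counted. The ratio of Chek2 to Chek1 TPM in RM-9 tumors was 1.32, 1.37, 1.37 and 1.51 in the control mice, 2.33, 2.33, 2.31 and 2.07 at 3 h and 2.03, 2.37, 2.41 and 2.57 at 12 h, and 1.72, 2.02 and 1.59 at 24 h. All 11 RT mice of this model lay above all 4 control mice. In MC-38 tumors the ratio went the other way at 3 h and 24 h. It was 1.15, 1.30, 1.25 and 1.24 in the control mice, 1.13, 0.83, 1.03 and 1.07 at 3 h and 0.57, 1.06, 0.98 and 0.93 at 24 h, while the values at 12 h, 1.19 to 1.46, overlapped with control.

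The ratio of Cdc25b to Cdc25a TPM was higher at 12 h than in control mice in both models. In RM-9 tumors it was 2.35, 2.48, 2.52 and 2.27 in the control mice and 3.41, 3.73, 3.06 and 3.53 at 12 h. The MC-38 values were 2.22, 2.51, 2.82 and 2.65 in the control mice and 3.04, 3.33, 3.94 and 4.60 at 12 h. At 3 h and 24 h it overlapped with control in both models. The ratio of Atm to Atr TPM was higher at 3 h than in control mice in both models, at 0.52 to 0.66 against 0.26 to 0.50 in RM-9 and at 1.41 to 1.65 against 1.04 to 1.24 in MC-38 tumors. The ratio of Mdc1 to Trp53bp1, the break adaptors, overlapped with control at every time in both models, with medians from 0.63 to 0.78 in RM-9 and from 1.47 to 1.62 in MC-38 tumors. Cdc25b to Wee1 was 3.15 to 3.77 in RM-9 control mice and 2.00 to 2.74 at 3 h. Cdc25a to Wee1 was 1.25 to 1.52 in RM-9 control mice and 1.65 to 1.93 at 24 h. Atm to Trp53 was 0.060 to 0.082 in MC-38 control mice, 0.083 to 0.098 at 3 h and 0.090 to 0.112 at 12 h. These last ratios overlapped with control in the other comparisons.

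**Figure D4:**
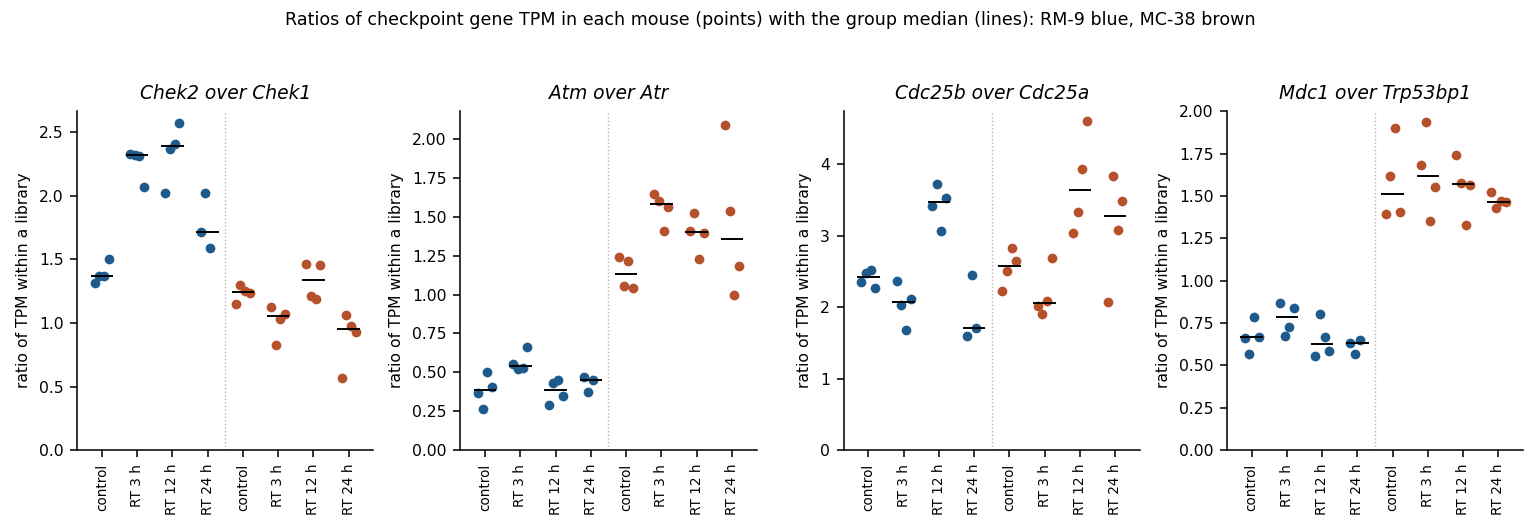
Ratio of the TPM of a pair of checkpoint genes within each library (y axis, from 0, no unit) for each mouse of the 8 groups, with the group median as a line. The ratio of Chek2 to Chek1 lies at 1.32 to 1.51 in RM-9 control mice and at 1.59 to 2.57 in the RM-9 mice after RT, and that of Cdc25b to Cdc25a is above control at 12 h in both models.

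Genes that act beside the 10 in the checkpoint were called in the same comparisons, and their counts stand against the shares of all genes called in the same direction. These shares were 8.3% lower at 12 h in RM-9 tumors, and 28.5% higher at 12 h and 13.2% higher at 24 h in MC-38 tumors. Of 13 break and fork sensors, 0 were called at 3 h in either model in TPM as deposited (3 had an unadjusted p under 0.05 in RM-9 and 7 in MC-38, and median-ratio scaling called Nbn lower in RM-9), 2 were lower at 12 h in RM-9 and 6 were higher at 12 h in MC-38 tumors. The 2 were Nbn, a subunit of the break-sensing MRN complex, at 5.10 TPM in control and 3.15 TPM at 12 h (log2 change -0.61, limma adjusted p = 0.027), and Rpa2, a subunit of the protein that coats single-stranded DNA, at 13.6 and 8.61 TPM (-0.62, 0.030). The 6 in MC-38 included the other MRN subunits Mre11a, from 20.4 to 30.2 TPM, and Rad50, from 25.2 to 39.5 TPM. After median-ratio scaling 0 of the 13 were called at 12 h in either model. Of 11 mediators and chromatin adaptors, 3 were lower at 12 h in RM-9 and 6 were higher at 12 h in MC-38 tumors. Claspin (Clspn), which presents CHK1 to ATR, rose from 14.6 to 22.5 TPM (log2 change 0.63, limma adjusted p = 0.012), and Bard1, the partner of BRCA1, rose from 6.12 to 9.97 TPM (0.70, 0.014). After median-ratio scaling 0 of the 11 were called at 12 h in the RM-9 model. In the MC-38 model 2 were then higher, Clspn at 0.29 and Bard1 at 0.38, against 6.34% of all genes, and 1 was lower, Uimc1, against 9.84%. At 3 h, 0 of the 11 were called in either model in TPM as deposited. After median-ratio scaling H2afx was lower at 3 h in RM-9, against 1.13% of all genes. Clspn was then higher in MC-38, against 0.293%.

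Of 9 further kinases and phosphatases of the cell cycle, 4 were higher at 12 h and 2 at 24 h in MC-38 tumors, against 28.5% and 13.2% of all genes. Mastl alone was called at either time after median-ratio scaling. In RM-9 tumors 1 of the 9 was lower at 12 h, the kinase Mapkapk2, from 43.2 to 33.7 TPM (log2 change -0.36, limma adjusted p = 0.025), and 0 were after median-ratio scaling. At 3 h, 0 of the 9 were called in TPM as deposited, with 3 in RM-9 and 5 in MC-38 at an unadjusted limma p under 0.05. After median-ratio scaling Ppm1d was higher and Plk1 and Cdc25c lower in RM-9 at 3 h, against 1.61% and 1.13% of all genes. Cdk2 was then higher in MC-38, against 0.293%. Mastl, the kinase that restrains the phosphatase opposing CDK1, rose from 7.22 TPM in control to 12.4 TPM at 12 h and 12.6 TPM at 24 h, with log2 changes of 0.79 and 0.80 (limma adjusted p = 0.014 and 0.013). Of the 6 regulators of p53, Mdm2 and Trp53inp1 were higher at 3 h and 12 h in both models and both scalings. Shares of all genes called higher as deposited were 0.2% and 0.0714% in RM-9 and 0.051% and 28.5% in MC-38 tumors. Usp7 and Mdm4 were also higher at 12 h in MC-38 tumors, but not after median-ratio scaling. At 24 h, Mdm2 and Trp53inp1 were higher in MC-38 tumors, against 13.2%, and Mdm2 alone after scaling, while RM-9 had 0 calls. Mdm2, the ligase that marks p53 for degradation, rose from 644 to 1517 TPM at 3 h in RM-9 tumors (log2 change 1.27, limma adjusted p = 0.015) and from 15.6 to 34.0 TPM in MC-38 tumors (1.11, 0.012). Trp53 mRNA itself stood at 90.7 and 149 TPM at that time, with log2 changes of -0.03 and 0.35 that did not pass. Of 12 p53 targets, 3 were higher at 3 h in the RM-9 model, against 0.2% of all genes, and 1 in the MC-38 model, against 0.051%. After median-ratio scaling 5 were higher in RM-9 tumors, against 1.61% of all genes, and 1, Zmat3, in MC-38 tumors, against 0.293%. Cdkn1a, the inhibitor of cyclin-dependent kinases, was called in both, from 97.6 to 190 TPM in RM-9 and from 58.2 to 102 TPM in MC-38 tumors, and the latter call was lost after median-ratio scaling (adjusted p = 0.082).

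Genes of the cell cycle phases moved beside the checkpoint genes, and their part in these results was not tested. The 16 S phase genes summed to 488 to 624 TPM in RM-9 control mice and 337 to 407 TPM at 12 h, where Trp53 and Chek1 were lower, and 9 of the 16 were called lower, against 8.3% of all genes. In MC-38 tumors they summed to 980 to 1562 TPM in control mice, 1711 to 1758 TPM at 12 h and 1735 to 1884 TPM at 24 h, with 8 and 10 called higher, against 28.5% and 13.2% of all genes. After median-ratio scaling these counts were 0 at 12 h in both models and 8 at 24 h in MC-38 tumors, the last against 7.85% of all genes. At 3 h the 16 genes summed to 425 to 655 TPM in RM-9, which overlapped with control. The sum was 1593 to 1795 TPM in MC-38 tumors, above every control mouse. Limma called 0 of the 16 at 3 h in either model and scaling. In MC-38 tumors 12 had an unadjusted p under 0.05 in TPM as deposited and 7 after median-ratio scaling, and in RM-9 0 did. The 18 genes of G2 and mitosis summed to 886 to 1403 TPM in MC-38 control mice, 1585 to 1957 TPM at 12 h and 1743 to 1966 TPM at 24 h, with 12 and 7 called higher, against 28.5% and 13.2% of all genes. After median-ratio scaling 2 were called higher at 12 h, Aurkb and Top2a, and 5 at 24 h, against 6.34% and 7.85% of all genes. At 3 h, 0 of the 18 were called in either model in TPM as deposited, with 8 at an unadjusted p under 0.05 in each by limma. After median-ratio scaling 8 were lower at 3 h in RM-9 tumors and 4 in MC-38 tumors, against 1.13% and 0.357% of all genes. In RM-9 tumors at 12 h and 24 h limma called 0 of the 18 in either scaling, with 1 and 0 at an unadjusted p under 0.05 in TPM as deposited and 7 and 6 after median-ratio scaling.

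Over the 6 comparisons with control, the gene whose log2 changes were most like those of a checkpoint gene was found among 8373 genes of at least 5 TPM in both models. Likeness was the root mean square difference of the 6 log2 changes in TPM as deposited, so shifts shared by most genes count toward it. The nearest of so many genes always lies below the median over all genes, so that median gives the scale alone. Atr was closest to Phf20, at 0.027, and Cdc25a to Nt5c2, at 0.036, where the median over all genes was 0.21 and 0.23. For Cdc25b the nearest was Sgol2a, a protector of centromeric cohesion, at 0.13, against a median of 0.44. Both values were the largest among the checkpoint genes searched, so the distance alone does not set Cdc25b apart. Chek1 was closest to 1110004E09Rik at 0.064, Trp53bp1 to Arhgef5 at 0.044, Mdc1 to Dock1 at 0.045, Wee1 to Gatad2b at 0.095 and Atm to Gtf3c1 at 0.082. Chek2 and Trp53 had no change of 0.5 log2 units or more and were not searched.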

How the data were processed

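RNA of 31 tumors, 1 library per mouse, had been sequenced by the authors as stranded single-end reads of 75 bases. TPM was deposited per gene by the authors, beside FPKM and mean coverage per base that the authors' quantification also wrote. The ratio of coverage to FPKM gave an estimate of the reads behind each library, and neither entered a test. The aligner, the counting tool and its strand setting are not given in the sources used here. The submitters' processing notes name bcl2fastq 2.17 and GRCm39, but gene coordinates in the files matched GENCODE M21 (GRCm38) on the same chromosome for 100% and with the same start or end for 91.1% of 45137 shared genes. Promoter sequences are RefSeq's for GRCm38.p6.

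Genes with a mean of at least 0.5 TPM were tested with limma 3.58.1 (R 4.3.3, intensity trend) on log2(TPM + 0.5), a scale that understates changes of low genes. The 4 groups of a model shared a fit, and all 31 libraries shared a fit for differences between models. P-values were adjusted by Benjamini-Hochberg over all genes tested, with a threshold of 0.05. Single genes had an exact two-sided permutation test over 70 or 35 assignments. Alternatives were other pseudocounts (0.1 and 1), filters, scalings, a block on mouse number, fits of 2 groups, a Dunnett comparison and leaving out each mouse. On simulated data for the 12 h comparisons, 93% (RM-9, 14013 genes) and 80% (MC-38, 15698 genes) of genes changed by 1 log2 unit were recovered, with 8 and 10 false calls. The 200 changed genes had at least 5 TPM and changes of 1 or 2 log2 units. Spread was drawn for each gene alone, with no shift shared by a library. Recovery of smaller changes, of lower genes or under shared shifts was therefore not measured. Python 3.11.15 with scipy 1.17.1 was used besides. The members, pathway lists and ratios were chosen with earlier results of these data known. All 10 members are named, and of each pathway list at most the 3 genes with the smallest p in a comparison, apart from names given beside short counts. Some prostate markers are not reported here.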

Additional observations from a re-analysis of the deposited data

Results flagged for a closer look

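Each of the 10 genes was screened in each group of 4 mice, which gave 70 sets of values. Of these, 5 held a mouse far from the others by Dixon's test at the 95% level. Chance alone gives this in about 1 of 20 independent sets, but the same mice recur across genes, so these sets are not independent. In RM-9 tumors at 12 h, mouse 1 was low for Chek2, at 5.16 TPM against 6.67 to 6.95 TPM, and for Trp53bp1, at 5.24 TPM against 6.99 to 7.07 TPM. MC-38 control mouse 1 was low for Trp53bp1, at 6.30 TPM against 10.4 to 10.8 TPM. Mdc1 was high in MC-38 mouse 4 at 3 h, at 24.2 TPM against 17.9 to 18.6 TPM, and in MC-38 mouse 2 at 12 h, at 27.7 TPM against 24.8 to 25.1 TPM.

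The change at 12 h differed between the models for 9 genes in the limma interaction test, MC-38 minus RM-9 on the log2 scale. The difference was 1.06 for Atm, 0.82 for Atr, 0.93 for Chek1, 0.72 for Wee1, 0.76 for Cdc25a, 0.80 for Cdc25b, 0.92 for Trp53, 0.96 for Trp53bp1 and 0.98 for Mdc1, against a median of 0.50 over all genes. Of all 15358 genes, 44.9% were called in this direction, and after median-ratio scaling 1 of the 10, Trp53, was called. At 24 h it was 0.87 for Chek1.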

How the results depend on the processing

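The calls depended on how libraries were scaled and on single mice. Among the 10 genes, median-ratio scaling left 0 called at 12 h in RM-9, 3 at 12 h and 2 at 24 h in MC-38 tumors, and 1 (12 h) and 2 (24 h) that differed in response between models. TPM without mitochondrially encoded genes gave 1 at 12 h in RM-9, where 79 of all 15329 genes were called. It gave 5 and 2 for the differences in response at 12 h and 24 h, against 2234 and 343 of all 16266 genes. Between untreated models it gave 5, against 10696 of the 16266 genes. For the settings that follow, the share of all genes is not given, so those counts have no background beside them. At 12 h in RM-9, a pseudocount of 1, no filter, a mean TPM of at least 5 and no intensity trend each left 1. At 24 h in MC-38, no filter left 1, no intensity trend 2 and a fit of only the 2 groups 0, and the last left 3 at 12 h. The difference in response at 24 h gave 0 genes with a pseudocount of 0.1 or no filter, and 2 with a pseudocount of 1 or a mean TPM of at least 5. The Dunnett comparison gave 2 at 3 h in RM-9. Leaving out 1 mouse gave 0 to 0 genes at 3 h, 0 to 1 at 12 h and 0 to 0 at 24 h in the RM-9 model, 0 to 0, 3 to 10 and 0 to 6 in the MC-38 model, 0 to 0, 7 to 9 and 0 to 3 for the differences in response, and 7 to 10 between untreated models. With the mouse number as a block, 1 gene was called at 12 h in RM-9. Mouse numbers did not pair the mice, since same-numbered mice correlated at a median of -0.061 for RM-9 and -0.073 for MC-38 and 4 of 15 and 1 of 16 libraries correlated best with their own number.

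Some log2 values changed sign. Median-ratio scaling did so in the RM-9 model after 12 h (Wee1 0.15, Trp53bp1 0.046, Mdc1 0.0053) and in the MC-38 model after 3 h (Chek2 -0.14, Wee1 -0.14, Cdc25b -0.12). For the difference in response it gave -0.078 for Atm, -0.044 for Atr, -0.020 for Cdc25a, -0.019 for Cdc25b and -0.057 for Mdc1 after 3 h, and for Chek2 -0.15 after 12 h and -0.18 after 24 h. Between untreated models it gave -0.035 for Wee1, -0.071 for Cdc25a, -0.34 for Trp53 and -0.32 for Trp53bp1. Without mitochondrially encoded genes the values were 0.081 for Wee1 in RM-9 after 12 h, and in MC-38 after 3 h -0.010 for Chek2 and -0.019 for Wee1. The differences in response were then -0.054 for Atm, -0.0020 for Atr and -0.015 for Mdc1 after 3 h and -0.065 for Chek2 after 24 h, and untreated models differed by -0.11 for Trp53 and -0.091 for Trp53bp1. For the difference in response, a pseudocount of 0.1 gave -0.014 for Atm after 3 h and the replicate block -0.022 for Chek2 after 24 h.

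Leaving out 1 mouse also turned the sign of some values, none of them called. In RM-9 the ranges were -0.10 to 0.12 for Cdc25b and -0.072 to 0.044 for Trp53 after 3 h, and -0.18 to 0.15 for Wee1 after 12 h. After 24 h they were -0.11 to 0.14 for Atm, -0.24 to 0.042 for Chek2, -0.077 to 0.091 for Cdc25a, -0.065 to 0.14 for Trp53bp1 and -0.18 to 0.014 for Mdc1. In MC-38 they were -0.0100 to 0.35 for Atr, -0.11 to 0.18 for Chek2, -0.14 to 0.17 for Wee1 and -0.10 to 0.24 for Cdc25b after 3 h, and -0.24 to 0.15 for Chek2 after 24 h. For the difference in response they were -0.12 to 0.24 for Atm, -0.16 to 0.20 for Atr, -0.025 to 0.20 for Cdc25a, -0.093 to 0.25 for Cdc25b and -0.16 to 0.24 for Mdc1 after 3 h, and -0.12 to 0.27 for Chek2 after 24 h. The cause was not tested.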
